A study of Mus musculus with 21 samples.

Results

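The serpin protease inhibitor genes of mouse skin are described here across all 7 cell populations of the series. The family was taken by symbol, as every line of the 3 deposited tables whose gene symbol is Serpin followed by a clade letter from a to i, digits and optional further letters. This gave 54 genes of 43923 loci, of which 53 are annotated as protein coding. The remaining one, Serpina3h, fits the symbol pattern but is annotated as a transcribed pseudogene, and it was kept. The family was chosen with the expression values of these same tables in view, so the calls and levels below describe it and lend no independent support to its choice.

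Serpins are proteins that share one fold and that mostly inhibit serine proteases, some of them cysteine proteases, by a suicide mechanism in which the protease cleaves an exposed loop and is trapped as a covalent complex. A few have lost inhibition and act as chaperones, hormone carriers or signalling proteins. Clade a holds secreted relatives of antitrypsin and antichymotrypsin, clade b holds mostly intracellular serpins, and the other clades hold regulators of clotting, fibrinolysis, complement and collagen folding. In skin, serpins are known as counterparts of the proteases that shed the cornified layer and of those that are used by immune cells.

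The study sequenced polyadenylated RNA from 21 libraries in 7 groups of 3. A 3-population table compares cells from wild type mice, and its columns are named HFSC, CD34a6 and bulk. The labels name hair follicle stem cells (HFSCs, keratinocytes of the follicle bulge) purified by flow cytometry, HFSCs grown in culture, and total epidermal cells, and bulk was read as the last of these. Which of HFSC and CD34a6 holds the sorted cells and which the cultured ones is not stated in the labels, so the column names are kept. The other tables concern total epidermal cells grown for 10 to 14 days in the HFSC culture system that the labels call 3C. One sets CD34+ against CD34neg cells, both positive for α6 integrin and sorted from such cultures. The other sets cultures given dorsomorphin, an inhibitor of BMP type I receptors, for 48 h against cultures given cyclopamine, a Smoothened antagonist that blocks Hedgehog signalling, for 48 h. The inhibitor table has no untreated culture. The series was designed to ask who the populations of the 3C cultures are, and which early changes accompany loss of HFSCs under dorsomorphin or their enrichment under cyclopamine. Labels of the 12 culture libraries of these tables give no genotype, and nothing in the labels says whether the 3 libraries of each group stem from different animals or culture dishes, so the authors' tests may measure technical spread alone.

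Levels are the authors' deposited FPKM (fragments scaled to transcript length and to the mapped fragments of the library), with 1 value per population and no value per library. No SD is therefore given, depth is unknown, and no level is set against one from another table. Calls of higher and lower are those of the authors, at an adjusted p under 0.05. Keratinocyte markers were abundant throughout, with summed levels of 16238 FPKM in HFSC, 8602 FPKM in CD34a6 and 8871 FPKM in bulk. All 8 bulge markers were lower in HFSC than in CD34a6, among them Lgr5 with 0.299 FPKM in HFSC and 70.5 FPKM in CD34a6, and Krt15 with 37.9 FPKM in HFSC and 9923 FPKM in CD34a6. They summed to 129 FPKM in HFSC, 11263 FPKM in CD34a6 and 4856 FPKM in bulk. Against bulk 2 of 8 rose and 4 fell in HFSC, while 7 of 8 rose and none fell in CD34a6. A higher level in HFSC is therefore not read here as a trait of sorted bulge cells. Of the immune markers 7 of 12 tested fell in HFSC and 11 of 12 in CD34a6 against bulk, and they summed to 4.27 FPKM in HFSC, 7.86 FPKM in CD34a6 and 468 FPKM in bulk. The markers of differentiating epidermis are 8 genes, some with several loci in the table. Of their 14 tested loci 13 fell in either column against bulk. All their loci summed to 1134 FPKM in HFSC, 2424 FPKM in CD34a6 and 84046 FPKM in bulk. Bulk therefore differed from both other populations in its immune and suprabasal markers as well as in its serpins, and the part of these markers in the serpin values was not tested. In such mixed samples, fewer cells of a type and less RNA per cell cannot be told apart.

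Serpin expression was concentrated in few genes. A level of 5 FPKM was reached by 21 of the 54 genes among the 3 populations, by 14 in the sorted fractions and by 12 in the inhibitor cultures. A further group of 24 genes stayed under 1 FPKM in all 7 populations, and Serpinb9d, Serpinb9f and Serpini2 were listed at 0 in every one. Levels were also low for some serpins known from blood plasma. The corticosteroid carrier Serpina6 did not exceed 0.00874 FPKM in any population, the thyroxine carrier Serpina7 0.00874 FPKM, the heparin cofactor Serpind1 0.195 FPKM and the plasmin inhibitor Serpinf2 0.386 FPKM. Other plasma serpins reached higher levels, up to 5.09 FPKM for Serping1 in CD34+ cells and 2.51 FPKM for Serpinc1 with cyclopamine. The locus of Serpinc1 overlaps other genes, named below. Summed over the family, levels came to 1156 FPKM in HFSC, 804 FPKM in CD34a6 and 2546 FPKM in bulk. Because all loci together also summed higher in bulk, the family's share of all FPKM differed less, at 0.240% in HFSC, 0.198% in CD34a6 and 0.278% in bulk.

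Against bulk, 11 of 31 tested serpins rose and 11 fell in HFSC, where 19% of all tested loci rose and 24.7% fell. In CD34a6, 6 of 28 tested serpins rose and 13 fell against bulk, where 22% of all tested loci rose and 24.3% fell. Between the columns HFSC and CD34a6, 13 of 27 tested serpins rose and 11 fell in HFSC relative to CD34a6, where 25.2% of all tested loci rose and 29% fell. These falls include Serpina1a, Serpina1b, Serpina1c and Serpina1e, which share over 90% of their coding bases, so they may not be separate signals. The median log2 difference of the tested serpins, with a pseudocount of 1 FPKM, was -0.27 for HFSC over bulk, beside -0.11 over all tested loci. It was -0.87 for CD34a6 over bulk, beside 0.003 over all tested loci, and 0.69 for HFSC over CD34a6, beside -0.07 over all tested loci. These comparisons share populations, so the counts are given side by side and not set against each other. The directions are given below by genomic cluster, in the order of the plot of levels in the 3 populations.

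**Figure D1:**
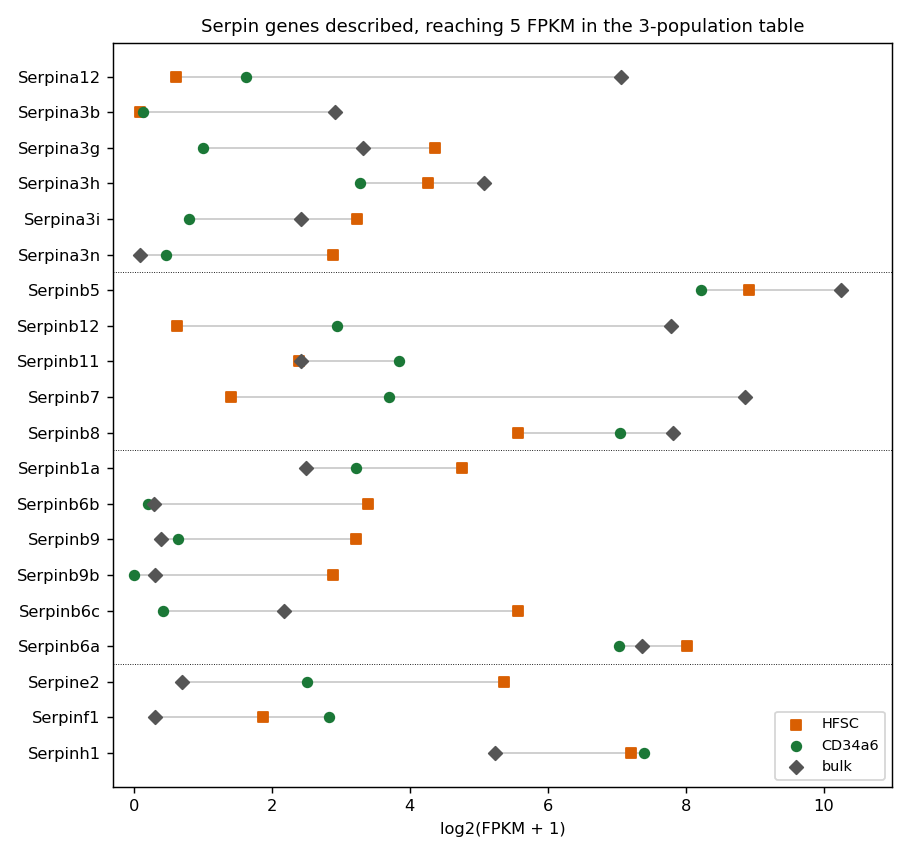
Levels of the serpin genes described here that reached 5 FPKM in the 3-population table, as log2(FPKM + 1) of the authors' single value for HFSC (squares), CD34a6 (circles) and bulk (diamonds), grouped from top to bottom as clade a, clade b of chromosome 1, clade b of chromosome 13 and other clades. Serpinb5 is the highest in each population, and Serpinb7 and Serpinb12 sit far to the right in bulk alone.

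The clade b genes of chromosome 1, from Serpinb5 (chr1:106861173-106883348, GRCm38) to Serpinb8 (chr1:107590006-107610484), were mostly bulk genes. Of the 7 genes there that reached 1 FPKM in some population of that table, 6 were highest in bulk. Among these, Serpinb13 and Serpinb3a reached that level in bulk alone, which fixed their place in this count. In HFSC 6 of 7 tested genes fell against bulk and none rose, and in CD34a6 4 of 7 fell and 1 rose. Over all tested loci 24.7% fell and 19% rose in HFSC, and 24.3% fell and 22% rose in CD34a6. Lines with merged symbols, described at the end, also lie there and are outside these counts. Of these, Serpinb10,Serpinb2 had no call between HFSC (142.7 FPKM) and bulk (211 FPKM), while Serpinb3b,Serpinb3c was called lower in HFSC. Serpinb5 (maspin, a serpin without inhibitory activity that is abundant in epithelia) was the most abundant family member, with 483 FPKM in HFSC, 299 FPKM in CD34a6 and 1224 FPKM in bulk. It was lower than bulk in both columns and higher in HFSC than in CD34a6. On its own it made up 41.8% of the summed serpin FPKM in HFSC, 37.2% in CD34a6 and 48.1% in bulk.

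Serpinb7, whose loss in humans causes a palmoplantar keratoderma, had 1.64 FPKM in HFSC, 11.9 FPKM in CD34a6 and 463 FPKM in bulk. Serpinb12, an inhibitor of trypsin-like proteases, had 0.536 FPKM in HFSC, 6.66 FPKM in CD34a6 and 219.9 FPKM in bulk. In the authors' deposited table these were the largest called falls of the family for which a fold exists, with Serpinb7 283-fold lower and Serpinb12 409.9-fold lower in HFSC than in bulk. Both were also lower in HFSC than in CD34a6. Serpinb8, an inhibitor of furin in humans, was less uneven, with 46.4 FPKM in HFSC, 132 FPKM in CD34a6 and 224 FPKM in bulk. The authors' deposited table gave 0.182 as its adjusted p for CD34a6 over bulk, while HFSC was lower than both other populations.

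A pair of low genes of the cluster was also highest in bulk. Serpinb13, an inhibitor of cathepsin L in humans, was listed at 0 in HFSC and had 0.172 FPKM in CD34a6 and 2.90 FPKM in bulk. Serpinb3a, a relative of the human squamous cell carcinoma antigens, was listed at 0 in HFSC and had 0.0435 FPKM in CD34a6 and 1.44 FPKM in bulk. Both genes were called lower than bulk in HFSC, and Serpinb13 also in CD34a6, whereas Serpinb3a had an adjusted p of 0.327 for CD34a6 over bulk (authors' deposited table). Serpinb11 was the exception, with 4.26 FPKM in HFSC, 13.4 FPKM in CD34a6 and 4.33 FPKM in bulk. It was called higher in CD34a6 than in bulk and lower in HFSC than in CD34a6, and its levels in HFSC and bulk were nearly equal. The eighth gene, Serpinb3d, was listed at 0 in all 3 populations.

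The promoter windows of this cluster were read for a motif of AP-1, the Fos and Jun factor of epidermal and stress genes. Whether AP-1 acts on these genes was not tested. RefSeq windows of GRCm38.p6 from 250 bases before to 50 bases after a transcript start were searched for TGANTCA, which reads the same on both strands. The search was made with the levels known. Of the 7 cluster genes with a window, 5 held a match, against 0 of 14 clade b genes of chromosome 13 and 4 of 16 clade a genes of chromosome 12. Of all 32851 windows 7.81% held one. That is a share of windows, not of genes, and a gene can have more than 1 window. The clade a matches were all in Serpina1a to Serpina1d, which are near-copies of each other. Within the cluster Serpinb11, not highest in bulk, held 2 matches, and Serpinb3a, highest in bulk, held none. The TATA box TATAAA was matched in 4 of the 7 genes, against 2 of 14 on chromosome 13, and in 13.6% of all windows. The upstream AP-1 matches of the cluster are shown as 55-base stretches on the gene's strand, 5′ to 3′, with the matched letters in capitals. A further match in Serpinb8, after the start, is not shown. For Serpinb7 and Serpinb11 the RefSeq start lies inside the GENCODE locus. The matches begin between 23 and 181 bases before the start, and a match is a description of the letters, not a bound site.
Serpinb5 (chr1:106861011-106861065): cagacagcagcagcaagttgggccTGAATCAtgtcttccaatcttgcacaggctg
Serpinb12 (chr1:106934380-106934434): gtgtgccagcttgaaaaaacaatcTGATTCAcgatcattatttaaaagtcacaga
Serpinb11, distal (chr1:107362109-107362163): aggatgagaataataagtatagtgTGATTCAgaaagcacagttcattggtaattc
Serpinb11, proximal (chr1:107362214-107362268): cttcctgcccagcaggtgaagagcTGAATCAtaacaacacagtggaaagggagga
Serpinb7 (chr1:107422620-107422674): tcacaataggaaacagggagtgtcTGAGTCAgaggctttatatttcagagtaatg
Serpinb8 (chr1:107589959-107590013): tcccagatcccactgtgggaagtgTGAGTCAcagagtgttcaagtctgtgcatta

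The clade b genes of chromosome 13 showed another pattern. All 7 genes there that reached 1 FPKM in some population of the 3-population table were highest in HFSC. Of these, Serpinb1b, Serpinb6b, Serpinb9 and Serpinb9b reached that level in HFSC alone, which fixed their place in this count. Serpinb6d and Serpinb6e, highest in bulk at 0.998 and 0.976 FPKM, fell just short of that level. Of 7 tested genes 6 rose in HFSC against CD34a6 and none fell, and of 9 tested against bulk 5 rose and 1 fell. In CD34a6, by contrast, 1 of 6 tested genes rose and 3 fell against bulk. Over all tested loci 25.2% rose and 29% fell in HFSC relative to CD34a6. Against bulk 19% of all tested loci rose and 24.7% fell in HFSC, and 22% rose and 24.3% fell in CD34a6. Serpinb6a (chr13:33917918-34037147 as the table draws the locus), an inhibitor of granule proteases such as cathepsin G, had 257 FPKM in HFSC, 130.3 FPKM in CD34a6 and 164 FPKM in bulk. Of its differences the one between HFSC and CD34a6 passed. Its locus in the tables also spans the coding genes Nqo2 and Ripk1.

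Serpinb6c (chr13:33879816-33905708) had the largest called fold of the cluster, 139-fold for HFSC over CD34a6 in the authors' deposited table. It had 46.6 FPKM in HFSC, 0.335 FPKM in CD34a6 and 3.53 FPKM in bulk, and every difference passed. It was the only family member called in all 5 comparisons of the series. Serpinb6b, an inhibitor of granzyme A, had 9.55 FPKM in HFSC, 0.146 FPKM in CD34a6 and 0.218 FPKM in bulk. Serpinb9, an inhibitor of granzyme B that protects cells from their own cytotoxic granules, had 8.29 FPKM in HFSC, 0.554 FPKM in CD34a6 and 0.311 FPKM in bulk. Both were thus under 0.6 FPKM in CD34a6 and in bulk. For Serpinb9 in CD34a6 over bulk, the authors' deposited table gave an adjusted p of 0.108.

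Serpinb9b had 6.35 FPKM in HFSC, 0.00402 FPKM in CD34a6 and 0.237 FPKM in bulk. It was called higher in HFSC than in bulk, yet against CD34a6 the authors' deposited table gave an adjusted p of 0.206. Serpinb1a, an inhibitor of neutrophil elastase, had 26.0 FPKM in HFSC, 8.32 FPKM in CD34a6 and 4.64 FPKM in bulk, and all 3 differences passed. Its near-copy Serpinb1b, with 89.9% identical coding bases, had 1.1 FPKM in HFSC, was listed at 0 in CD34a6 and had 0.0144 FPKM in bulk. Serpinb6d and Serpinb6e ran the other way: they were listed at 0 in CD34a6 and had 0.998 and 0.976 FPKM in bulk, with both called lower in CD34a6. The Serpinb9 relatives further along the chromosome, Serpinb9c to Serpinb9g, stayed under 0.1 FPKM in all 3 populations, and Serpinb9d to Serpinb9g share at least 90% of their coding bases with another member, so reads may be split among them.

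**Figure D2:**
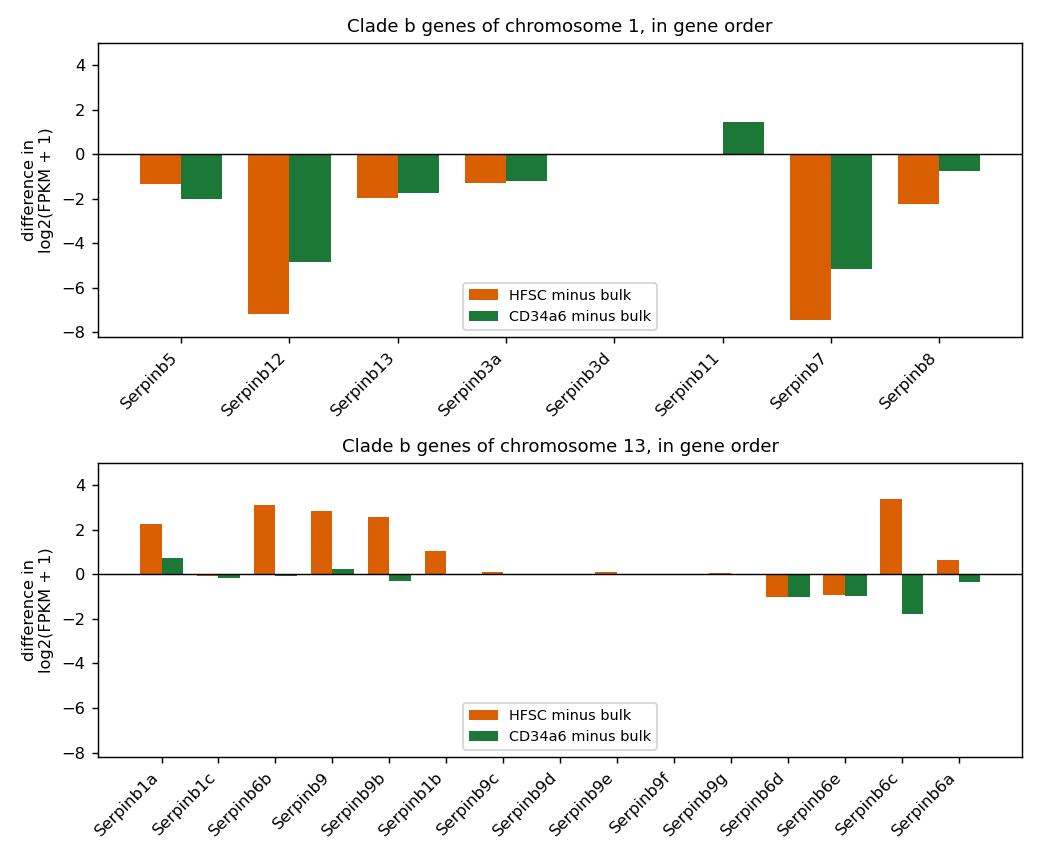
Differences in log2(FPKM + 1) from bulk for the clade b genes of chromosome 1 (upper panel, 8 genes) and chromosome 13 (lower panel, 15 genes) in gene order, with a bar for HFSC minus bulk and a bar for CD34a6 minus bulk at each gene and no replicate error. Bars of chromosome 1 point down except CD34a6 at Serpinb11, and Serpinb3d, listed at 0 throughout, has no bar. On chromosome 13 HFSC bars point up at Serpinb1a, Serpinb6b, Serpinb9, Serpinb9b, Serpinb1b, Serpinb6c and Serpinb6a and down at Serpinb6d and Serpinb6e, and the longest of the other HFSC bars there is 0.11, at Serpinb9c.

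Clade a of chromosome 12 split by gene. In HFSC 2 of 10 tested genes rose and 4 fell against bulk, where 19% of all tested loci rose and 24.7% fell. The share that rose there was near that of all tested loci. In CD34a6 none rose and 6 of 10 fell against bulk, where 22% of all tested loci rose and 24.3% fell. In HFSC relative to CD34a6 4 of 9 rose and 5 fell, where 25.2% of all tested loci rose and 29% fell. Serpina1a, Serpina1b, Serpina1c and Serpina1e are among these 5 falls and may share reads. Serpina12 (vaspin, an inhibitor of kallikrein 7) was a bulk gene, with 0.522 FPKM in HFSC, 2.10 FPKM in CD34a6 and 132 FPKM in bulk. Its fall in HFSC was 254-fold in the authors' deposited table, close to those of Serpinb7 and Serpinb12. The antichymotrypsin relative Serpina3b had 0.0604 FPKM in HFSC, 0.0930 FPKM in CD34a6 and 6.55 FPKM in bulk, and was lower than bulk in both columns. Serpina3j was likewise low outside bulk, with 0.0116 FPKM in HFSC, a listed 0 in CD34a6 and 3.82 FPKM in bulk. Its call was lower for CD34a6, while its adjusted p for HFSC over bulk was 0.313 in the authors' deposited table.

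A second set of antichymotrypsin relatives was lowest in CD34a6. Serpina3g, which acts inside cells on cysteine cathepsins, had 19.7 FPKM in HFSC, 1.003 FPKM in CD34a6 and 9.01 FPKM in bulk. Serpina3i had 8.37 FPKM in HFSC, 0.733 FPKM in CD34a6 and 4.33 FPKM in bulk. The annotated pseudogene Serpina3h had 18.2 FPKM in HFSC, 8.72 FPKM in CD34a6 and 32.7 FPKM in bulk. All 3 were called lower in CD34a6 than in bulk and higher in HFSC than in CD34a6. Between HFSC and bulk they parted: Serpina3g was called higher, Serpina3h lower, and Serpina3i had adjusted p = 0.0527 (authors' deposited table).

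The antitrypsin copies Serpina1a to Serpina1e, whose human counterpart is the main elastase inhibitor of plasma, were low, with their highest listed values in CD34a6. They ranged from 0 to 0.0618 FPKM in HFSC, 0.272 to 1.87 FPKM in CD34a6 and 0.0869 to 0.968 FPKM in bulk. Serpina1a, Serpina1b, Serpina1c and Serpina1e were called lower in HFSC than in CD34a6, and Serpina1d was not tested. Between CD34a6 and bulk no copy was called, with adjusted p from 0.101 for Serpina1e to 0.442 for Serpina1b in the authors' deposited table. Each shares over 90% of its coding bases with another of them, and the tables draw Serpina1b and Serpina1d as one locus, so the values of single copies are uncertain.

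Serpina3n (chr12:104406729-104414329), an inhibitor of granzyme B and other serine proteases that is induced in inflammation, is the gene that marks the family in this work. It had 6.37 FPKM in HFSC, 0.381 FPKM in CD34a6 and 0.0664 FPKM in bulk. It was called higher in HFSC than in either other population, and CD34a6 over bulk was not tested. The gene thus lay near 0 in total epidermis. Its closest relative among the members, Serpina3c, with 85.4% identical coding bases, did not exceed 0.185 FPKM in any population. Genes of merged lines, such as Serpina3k and Serpina3m, were not compared. The 250 bases upstream of the RefSeq start of Serpina3n (chr12:104406458-104406707, GRCm38.p6, plus strand) are shown because this gene has the widest contrast of the sorted fractions below. No letters are in capitals there. In its 300-base window none of the 5 motifs searched had a match, the others being the STAT motif TTCNNNGAA (8.3% of all windows), the hypoxia element core ACGTG (19.6%), the TATA box TATAAA (13.6%) and the GC box GGCGCC of BMP-responsive SMAD proteins (11.9%).
Serpina3n: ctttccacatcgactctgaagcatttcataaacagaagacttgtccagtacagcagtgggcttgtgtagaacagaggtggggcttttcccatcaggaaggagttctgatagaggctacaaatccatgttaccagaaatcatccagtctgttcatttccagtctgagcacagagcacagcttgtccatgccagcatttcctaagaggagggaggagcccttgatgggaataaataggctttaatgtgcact
The STAT motif was matched in the windows of 4 of 16 clade a genes of chromosome 12, namely Serpina3g, Serpina3i, Serpina1f and Serpina3f. Of these, Serpina1f did not exceed 0.00892 FPKM and Serpina3f 0.267 FPKM in any population.

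Outside clades a and b, 4 of 5 tested genes rose against bulk in HFSC, and 4 of 5 in CD34a6, with no falls. Over all tested loci 19% rose in HFSC and 22% in CD34a6 against bulk. Serpinh1 (HSP47, the collagen chaperone of the endoplasmic reticulum) was the most abundant of them, with 147 FPKM in HFSC, 167 FPKM in CD34a6 and 36.5 FPKM in bulk. It was higher than bulk in both columns, while its adjusted p for HFSC over CD34a6 was 0.247 in the authors' deposited table. Serpine2 (protease nexin, an inhibitor of thrombin and urokinase) had 40.2 FPKM in HFSC, 4.68 FPKM in CD34a6 and 0.624 FPKM in bulk. Every difference of Serpine2 passed. Beside it, endothelial and mural markers summed to 63.1 FPKM in HFSC, 1.85 FPKM in CD34a6 and 1.48 FPKM in bulk. Smooth muscle actin (Acta2) alone gave 62.1 FPKM of that sum in HFSC. Of this list 2 of 2 tested genes rose in HFSC against bulk, where 19% of all tested loci rose. In HFSC relative to CD34a6 2 of 3 rose and 1 fell, where 25.2% of all tested loci rose and 29% fell. The part of these markers in the serpin values was not tested.

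A pair of secreted serpins was highest in CD34a6. Serpinf1 (pigment epithelium-derived factor, a non-inhibitory serpin that restrains vessel growth) had 2.65 FPKM in HFSC, 6.11 FPKM in CD34a6 and 0.232 FPKM in bulk. Serping1 (the inhibitor of the C1 complement proteases) had 0.299 FPKM in HFSC, 1.91 FPKM in CD34a6 and 0.168 FPKM in bulk. Both were called higher in CD34a6 than in bulk and lower in HFSC than in CD34a6. Beside them, fibroblast markers summed to 11.97 FPKM in HFSC, 97.1 FPKM in CD34a6 and 71.3 FPKM in bulk, with Col1a1 at 0.447 FPKM in HFSC, 22.4 FPKM in CD34a6 and 1.21 FPKM in bulk, and Col3a1 and Lum listed at 0 in HFSC and in CD34a6. Their part in these serpin values was not tested. Antithrombin (Serpinc1) had 0.336 FPKM in HFSC, 1.25 FPKM in CD34a6 and 0.616 FPKM in bulk, with no call. Its locus in the tables overlaps the neighbouring coding gene Zbtb37 and the non-coding gene Gas5.

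In the 3C cultures, few serpins separated CD34+ from CD34neg cells. Of 18 tested serpins 1 rose and 1 fell in CD34+ cells, where 2.08% of all tested loci rose and 4.71% fell, and the median log2 difference was -0.04, beside -0.07 over all tested loci. Serpina3n was the gene that rose, with 72.4 FPKM in CD34+ cells, against 3.31 FPKM in CD34neg cells. In the authors' deposited table this was 21.9-fold, with adjusted p = 0.00275. It was the third most abundant serpin of CD34+ cells, after Serpinb5 and Serpinb6a. Serpinb6c was the gene that fell, with 5.78 FPKM in CD34+ cells, against 13.5 FPKM in CD34neg cells.

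The other abundant serpins of the sorted fractions had no call. Serpinb5 had 254 FPKM in CD34+ cells and 429 FPKM in CD34neg cells, with adjusted p = 0.182 (authors' deposited table). Serpinb6a had 104 FPKM in CD34+ cells and 174 FPKM in CD34neg cells, and Serpinb1a had 22.8 FPKM in CD34+ cells and 36.6 FPKM in CD34neg cells. Each of these values was lower in CD34+ cells, yet none passed. All loci together also summed lower in CD34+ cells, and the family's share of all FPKM was 0.127% in both fractions. Among the relatives of Serpina3n, Serpina3g had 17.2 FPKM in CD34+ cells and 16.5 FPKM in CD34neg cells. Serpina3h had 28.2 FPKM in CD34+ cells and 29.1 FPKM in CD34neg cells, and Serpina3i had 11.5 FPKM in CD34+ cells and 18.0 FPKM in CD34neg cells. None of these tested neighbours of Serpina3n on chromosome 12 had a call. The merged line Serpina3k,Serpina3m, outside the family rule and next to Serpina3n, had 2.60 FPKM in CD34+ cells. In CD34neg cells that line had 0.0770 FPKM, and it had no call.

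The complement inhibitor Serping1 came close to the threshold, with 5.09 FPKM in CD34+ cells, 1.60 FPKM in CD34neg cells and adjusted p = 0.0505 (authors' deposited table). Serpinf1 had 4.55 FPKM in CD34+ cells and 1.99 FPKM in CD34neg cells, with adjusted p = 0.0881 (authors' deposited table). Levels were nearly equal for Serpinb9 (11.1 FPKM in CD34+ cells, 11.4 FPKM in CD34neg cells) and Serpinh1 (39.5 FPKM in CD34+ cells, 42.8 FPKM in CD34neg cells). Serpine2 had 14.9 FPKM in CD34+ cells and 11.7 FPKM in CD34neg cells, and Serpinb8 had 37.7 FPKM in CD34+ cells and 48.6 FPKM in CD34neg cells. A missing call does not show that these levels are the same. Serpina12, Serpinb7 and Serpinb12, the genes abundant in bulk, were under 0.2 FPKM in both fractions. Bulge markers summed to 199 FPKM in CD34+ cells and 55.3 FPKM in CD34neg cells, immune markers to 8.34 FPKM in CD34+ cells and 9.15 FPKM in CD34neg cells, and markers of differentiating epidermis to 36.4 FPKM in CD34+ cells and 162 FPKM in CD34neg cells. Endothelial and mural markers summed to 32.4 FPKM in CD34+ cells and 13.6 FPKM in CD34neg cells, and the 1 gene tested was called higher. Fibroblast markers summed to 12.4 FPKM in CD34+ cells and 7.29 FPKM in CD34neg cells, and the 1 gene tested had no call. The part of all these markers in the serpin values of the fractions was not tested. CD34 itself was the basis of the sort.

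**Figure D3:**
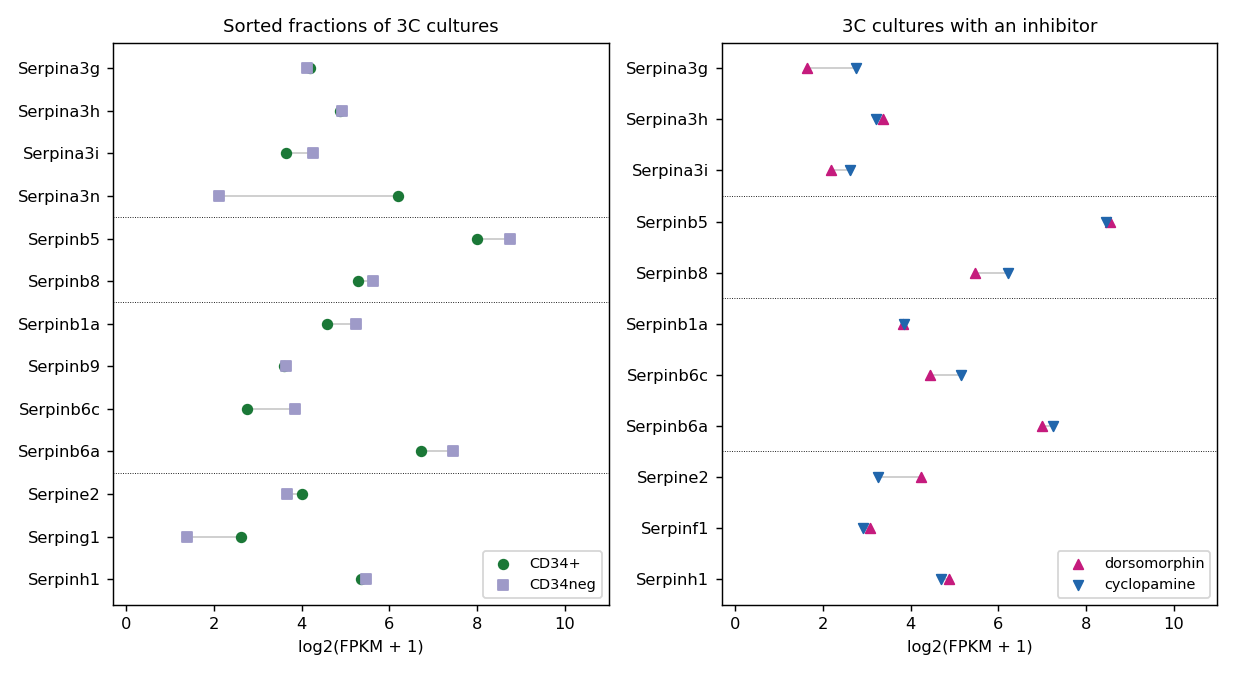
Levels of the serpin genes described here that reached 5 FPKM in the table shown, as log2(FPKM + 1) of the authors' single value per population, for CD34+ (circles) and CD34neg (squares) cells at left and for dorsomorphin (upward triangles) and cyclopamine (downward triangles) at right. Serpina3n has the widest gap at left (72.4 FPKM in CD34+, 3.31 FPKM in CD34neg), and at right Serpine2 lies higher and Serpina3g and Serpinb6c lower with dorsomorphin.

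Under dorsomorphin, 3 of 19 tested serpins rose and 3 fell relative to cyclopamine, where 1.26% of all tested loci rose and 1.31% fell. The median log2 difference was -0.02, as it was over all tested loci. Serpine2 rose to 18.0 FPKM with dorsomorphin, against 8.55 FPKM with cyclopamine, a level 2.11-fold higher with dorsomorphin in the authors' deposited table. Serpinb12 also rose, at low levels of 1.96 FPKM with dorsomorphin and 0.449 FPKM with cyclopamine, and in the authors' deposited table its adjusted p of 0.0486 lay just inside the threshold.

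The genes that fell were Serpina3g, Serpina3n and Serpinb6c. Serpina3g had 2.11 FPKM with dorsomorphin, against 5.80 FPKM with cyclopamine. Serpina3n had 2.29 FPKM with dorsomorphin, against 4.52 FPKM with cyclopamine, with adjusted p = 0.0401 (authors' deposited table). Serpinb6c had 20.6 FPKM with dorsomorphin, against 34.6 FPKM with cyclopamine. Of the 3, Serpina3g alone differed by more than 2-fold, and counting calls with an absolute log2 fold of at least 1 left 1 gene lower. Without an untreated culture, a higher level with one inhibitor and a lower level with the other cannot be told apart.

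No call was made for the most abundant serpins of these cultures. Serpinb5 had 373 FPKM with dorsomorphin and 351 FPKM with cyclopamine, and Serpinb6a had 126 FPKM with dorsomorphin and 152 FPKM with cyclopamine. Serpinb8 differed more, with 43.2 FPKM with dorsomorphin and 74.0 FPKM with cyclopamine, yet the authors' deposited table gave an adjusted p of 0.268. Serpinh1 had 28.6 FPKM with dorsomorphin and 25.1 FPKM with cyclopamine, and Serpinf1 had 7.41 FPKM with dorsomorphin and 6.53 FPKM with cyclopamine. Serpinb1a (13.2 FPKM with dorsomorphin, 13.4 FPKM with cyclopamine), Serpina3h (9.31 FPKM with dorsomorphin, 8.31 FPKM with cyclopamine) and Serpina3i (3.58 FPKM with dorsomorphin, 5.10 FPKM with cyclopamine) had no call either. Bulge markers summed to 72.3 FPKM with dorsomorphin and 91.6 FPKM with cyclopamine, with 1 of 6 tested lower, and immune markers to 19.3 FPKM with dorsomorphin and 11.5 FPKM with cyclopamine. Markers of differentiating epidermis summed to 859 FPKM with dorsomorphin and 953 FPKM with cyclopamine. Of their 12 tested loci 6 were lower and 1 was higher with dorsomorphin. Acta2 was higher, with 6.95 FPKM with dorsomorphin, against 3.14 FPKM with cyclopamine. The part of all these markers in the serpin values was not tested.

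The make-up of the summed serpin level differed between populations. The clade b genes of chromosome 1 made up 46.3% of it in HFSC, 57.6% in CD34a6 and 84.1% in bulk, and those of chromosome 13 made up 30.8% in HFSC, 17.4% in CD34a6 and 6.87% in bulk. Serpins outside clades a and b, mostly Serpinh1, made up 18.3% in HFSC, 22.6% in CD34a6 and 1.52% in bulk. In CD34+ cells clade a of chromosome 12 held 20.0% of the sum, against 7.89% in CD34neg cells, with Serpina3n the main member. The inhibitor cultures were alike in make-up, with 62.4% from clade b of chromosome 1 with dorsomorphin and 60.3% with cyclopamine.

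**Figure D4:**
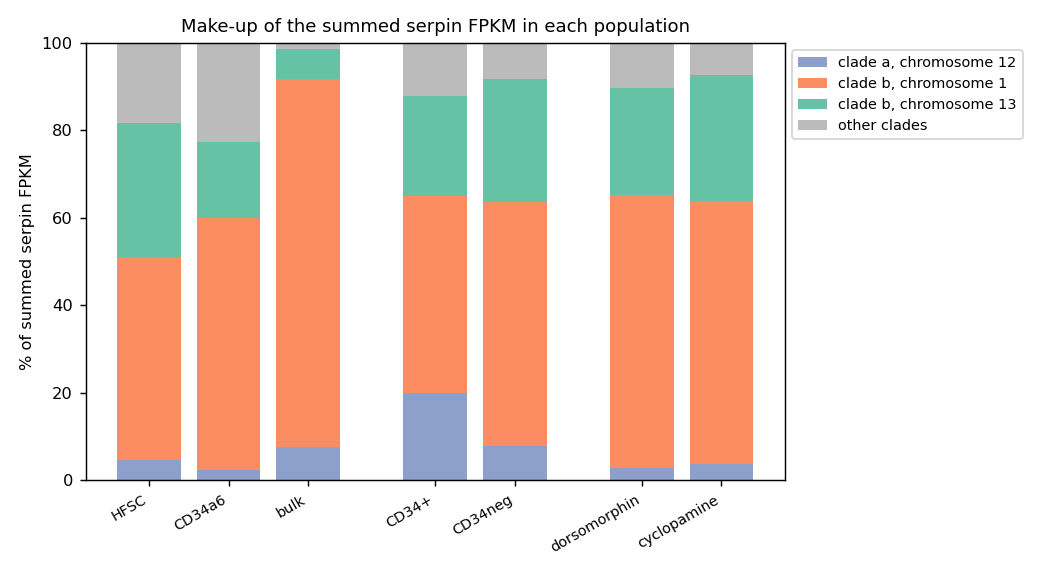
Make-up of the summed serpin FPKM of each population in percent, as stacked bars for clade a of chromosome 12, clade b of chromosome 1, clade b of chromosome 13 and all other clades, with the 3 tables as separate groups of bars. Clade b of chromosome 1 fills 84.1% of bulk and 46.3% of HFSC. Among the sorted fractions, clade a of chromosome 12 fills 20.0% of CD34+ and 7.89% of CD34neg.

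The proteases and partners that serpins act with were read from 4 lists, each beside the medians over all tested loci given above. Of all tested loci, 19% rose and 24.7% fell in HFSC against bulk, 22% rose and 24.3% fell in CD34a6 against bulk, and 25.2% rose and 29% fell in HFSC relative to CD34a6. In the cultures 2.08% rose and 4.71% fell in CD34+ cells, and 1.26% rose and 1.31% fell with dorsomorphin. Of the kallikreins, membrane serine proteases and their Kunitz and Kazal inhibitors, 1 of 21 tested genes rose and 9 fell in HFSC against bulk, and none of 19 rose and 13 fell in CD34a6 against bulk. In HFSC relative to CD34a6 12 of 21 rose and none fell. The medians of this list were -1.34 for HFSC over bulk, -3.70 for CD34a6 over bulk and 1.01 for HFSC over CD34a6, on the log2 scale with a pseudocount of 1 FPKM. Klk7, the chymotrypsin-like protease of the cornified layer and a target of Serpina12, had 102 FPKM in HFSC, 26.4 FPKM in CD34a6 and 1248 FPKM in bulk. Like Serpina12 it was lower than bulk in both columns, but between HFSC and CD34a6 Klk7 was called higher and Serpina12 lower. In the 3C fractions Klk7 also fell, with 4.22 FPKM in CD34+ cells, against 16.5 FPKM in CD34neg cells. Of the same list 2 of 13 tested genes fell in CD34+ cells and none rose, and with dorsomorphin 1 of 20 rose and 1 fell.

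Among the genes of plasminogen activation and coagulation, 5 of 14 tested rose and 6 fell in HFSC against bulk, 3 of 15 rose and 5 fell in CD34a6 against bulk, and 8 of 15 rose and 6 fell in HFSC relative to CD34a6. The share that rose in CD34a6 was near that of all tested loci. Their median log2 differences were -0.71 for HFSC over bulk, -0.37 for CD34a6 over bulk and 0.72 for HFSC over CD34a6. Urokinase (Plau), a protease inhibited by Serpine2, had 54.3 FPKM in HFSC, 4.43 FPKM in CD34a6 and 17.6 FPKM in bulk. Its receptor Plaur was also higher in HFSC than in CD34a6, with 6.06 FPKM in HFSC and 0.572 FPKM in CD34a6. In the cultures 2 of 10 tested genes fell and none rose in CD34+ cells, and with dorsomorphin 1 of 12 rose and none fell. The gene that rose was thrombomodulin (Thbd), with 5.36 FPKM with dorsomorphin, against 1.82 FPKM with cyclopamine.

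Cathepsins, granule proteases and caspase-1 had 1 of 15 tested genes higher and 4 lower in HFSC against bulk, 1 of 15 higher and 8 lower in CD34a6 against bulk, and 6 of 10 higher and 2 lower in HFSC relative to CD34a6. The median log2 difference was -0.12 for HFSC over bulk, -1.03 for CD34a6 over bulk and 0.77 for HFSC over CD34a6. Cathepsin C (Ctsc), which activates granule proteases, had 94.7 FPKM in HFSC, 5.03 FPKM in CD34a6 and 34.3 FPKM in bulk, and it was the list's only call between CD34+ cells (119 FPKM) and CD34neg cells (198 FPKM), of 9 tested. None of 9 tested was called under dorsomorphin. Of the collagen folding enzymes that work beside Serpinh1, 8 of 15 tested rose and 2 fell in HFSC against bulk, 7 of 15 rose and 3 fell in CD34a6 against bulk, and 5 of 15 rose and 1 fell in HFSC relative to CD34a6. Here the medians were 1.05 for HFSC over bulk, 0.72 for CD34a6 over bulk and 0.05 for HFSC over CD34a6. The lysyl hydroxylase Plod2 had 13.6 FPKM in HFSC, 1.69 FPKM in CD34a6 and 0.157 FPKM in bulk. In the cultures none of 14 was called between the fractions, and P4ha1 was the 1 of 14 that rose with dorsomorphin, to 35.3 FPKM, against 24.01 FPKM with cyclopamine.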

How the data were processed

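RNA was isolated with RNeasy Micro kits and libraries were made with a directional kit, per the labels' protocols. FPKM values, 1 per population and locus, were deposited by the authors in tables with a Cuffdiff layout, per the file headers. For the 9 libraries of the 3-population table the submitters' processing notes list HISAT 0.1.6, Cuffdiff, Cufflinks 2.2.1, StringTie 1.1.0 and FastQC 0.11.3, but the description in the labels has TopHat2. For the other 12 libraries they list DESeq2 1.8.1, Subread 1.4.2 with featureCounts, TopHat2 2.0.13, FastQC 0.11.2 and cutadapt 1.5, so which tool made those p-values is not settled. The build was GRCm38. The log2 fold changes, the test statistic (a score), the p-values and the q-values were deposited by the authors. The q-values equalled a Benjamini-Hochberg adjustment over the tested loci of a table to within 5.29e-07, and the smallest deposited p-value was 5e-05. Depth per library is unknown.

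Here, lines were assigned by the population named on the line, repeated lines were dropped, and folds were turned so that HFSC, CD34a6 (against bulk), CD34+ or dorsomorphin is on top. Among the sorted fractions, 3C_HFSC was read as CD34+, because the labels describe that comparison so. Medians used log2(FPKM + 1), which understates folds of low genes. No test was made here, and the reading and adjustment steps were tested on simulated data. Values are given for Serpina3n and for members that reach 5 FPKM in a table or were called, the others by counts and ranges. From partner lists genes with a call are named. One member that the counts and sums include is not reported here by name or value. The members and lists were chosen with earlier results of these data known. Loci were compared with GENCODE vM21: 44 of the 54 had the same start and end, and 6 overlapped another coding gene. Coding identity was computed from the longest GENCODE coding sequence of 53 members, and 47 members matched a RefSeq promoter window. Starts count from 1. Alternatives covered the threshold, the adjustment per pair, a fold and a level minimum, shared loci, centring, pseudocounts and leaving out Serpina3h, the last chosen after seeing the data. Tools were Python 3.11.15, pandas 2.3.3, NumPy 2.4.6, Biopython 1.88 and matplotlib 3.10.9.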

Additional observations from a re-analysis of the deposited data

Results flagged for a closer look

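Lines that carry merged symbols lie outside the family rule, and 3 of them were called higher in HFSC than in CD34a6. The line Serpinb10,Serpinb2 lies in the chromosome 1 cluster, between Serpinb7 and Serpinb8. It had 142.7 FPKM in HFSC, 14.6 FPKM in CD34a6 and 211 FPKM in bulk. Against bulk it was called lower in CD34a6 and had no call in HFSC. It was also called lower in CD34+ cells (47.1 FPKM) than in CD34neg cells (139 FPKM). With the inhibitors it had 142 FPKM with dorsomorphin and 126 FPKM with cyclopamine, without a call. The line Serpina11,Serpina9 had 1.73 FPKM in HFSC, 0.262 FPKM in CD34a6 and 2.52 FPKM in bulk, and it was called lower in CD34a6 than in bulk. The line Serpina3k,Serpina3m had 0.793 FPKM in HFSC, 0.388 FPKM in CD34a6 and 0.152 FPKM in bulk. Between the fractions this line had 2.60 FPKM in CD34+ cells and 0.0770 FPKM in CD34neg cells, without a call. In such lines the reads of the genes cannot be told apart.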

How the results depend on the processing

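No paired analysis was possible because the tables hold 1 value per population, and for the same reason leaving out a replicate and a replicate block were not run. Of 70 alternative counts of called serpins, 69 stayed within 1.5 times the reported count. The exception was the count of genes lower with dorsomorphin than with cyclopamine, which was 3 as reported and 1 with an absolute log2 fold of at least 1, because that minimum left Serpina3g alone. Leaving out the pseudogene Serpina3h, an alternative chosen after seeing the data, moved no count by more than 1. Pseudocounts of 0.1 and 0.01 FPKM moved the median log2 difference of the tested serpins to -0.71 and -0.85 for HFSC over bulk (-0.27 as reported) and to -1.33 and -1.34 for CD34a6 over bulk (-0.87 as reported), because low genes then weigh more, and reversed no median. Unknown depth limits what can be said of the members under 1 FPKM.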

Other observations

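The merged line Serpinb3b,Serpinb3c of the chromosome 1 cluster, outside the family rule, had 0.921 FPKM in HFSC, 5.32 FPKM in CD34a6 and 23.8 FPKM in bulk, and each difference was called in the authors' deposited table. With the inhibitors it had 0.895 FPKM with dorsomorphin and 1.88 FPKM with cyclopamine, without a call.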
